A study of Mus musculus with 4 samples.

Results

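Genes switched on by Wnt signalling and genes that mark the stem cells of the intestinal crypt were followed across 4 one-colour Affymetrix arrays of mouse small intestinal epithelium. The list held 34 such genes, of the 18193 genes that had a probe set of their own on the array, and 32 of the 34 could be followed. A probe set is a group of short probes whose brightness is summarised into 1 value. Each gene was read from the probe set named for it alone with the highest mean over the 4 arrays, and Tcf7 and Soat1, which had no such probe set, were not analysed here. Of the arrays, 2 were labelled AP-1B-/- (knockout) and 2 were labelled AP-1B+/- (heterozygous). AP-1B is an epithelial adaptor complex that sorts membrane proteins to the basolateral side of the cell, and Ap1m2 encodes its cell-type-specific subunit. All 4 samples came from healthy adult C57BL/6J mice aged 10 weeks and kept free of specific pathogens. Epithelial cells were loosened with EDTA and picked with a needle under a stereomicroscope. Markers of crypt cells and of absorptive enterocytes, given below, both had signal on every array. The share of each cell type in the RNA was not measured. Not given in the labels are the extent of the deletion, whether an array held 1 animal or a pool, and whether the 2 arrays of a group came from separate animals. The spread that the p-values below measure is therefore that between these samples. It can be technical only in part, since sex-linked transcripts given below differed between the 2 arrays of each label. The small number of arrays limits the precision.

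In the crypts, Wnt proteins from neighbouring cells bind Frizzled and Lrp receptors and stop the destruction of beta-catenin, which then enters the nucleus and switches on genes together with transcription factors of the Tcf and Lef family. Among these genes are inhibitors of the pathway itself, regulators of the cell cycle, and markers of the crypt base columnar cells, the dividing stem cells that lie between the Paneth cells. A further set of markers, such as Bmi1 and Hopx, has been used for slowly dividing cells higher in the crypt.

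The signal of each array was given in multiples of that array's median. Ap1m2 itself gave 2.49 on knockout 1 and 22.3 on knockout 2, against 19.9 on heterozygous 1 and 4.33 on heterozygous 2. The Ap1m2 signals of knockout 2 and heterozygous 2 thus go against their labels, and the names of arrays below are labels only. Each log2 difference of a single gene by label is given beside its values on the single arrays and beside the difference between knockout 1 and heterozygous 1 alone. The 75th percentile was 5.57 and 4.27 on the knockout arrays, against 4.13 and 5.54 on the heterozygous arrays, which means that bright genes as a whole lay higher on knockout 1 and heterozygous 2. The absorptive enterocyte markers, 13 of which were measured, summed to 3971 and 4118 on the knockout arrays and to 4913 and 4377 on the heterozygous arrays. Such a sum mostly follows the brightest markers. Each marker was therefore also set against its own mean over the 4 arrays on the log2 scale. The median of these deviations was −0.83 and 0.11 on the knockout arrays, against 0.23 and 0.14 on the heterozygous arrays. The sex-linked transcripts Xist and Eif2s3y ran with the replicate number, since Xist had a signal of 0.070 and 60.1 on the knockout arrays and 0.349 and 30.3 on the heterozygous arrays, and Eif2s3y had 24.1 and 0.051 against 12.1 and 0.256. Each label therefore held 1 array of either pattern, and the 2 arrays of a label did not hold the same RNA.

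By label, none of the Wnt target and stem cell genes passed the test. In limma's fit over 22519 probe sets, 0 of the 27 genes bright enough to be tested had an adjusted p under 0.05, and 0% of all tested probe sets did. At an unadjusted p under 0.05 limma called 1 of the 27, Apcdd1, against a background of 0.755% (170 probe sets). The 5 genes below the brightness limit were Wif1, Lef1, Tnfrsf19, Prox1 and Tert. Over all 32 genes the median log2 difference between knockout and heterozygous arrays was 0.06, with 19 genes above 0 and 13 below it, and the same median over all 18193 genes was 0.001. Between knockout 1 and heterozygous 1 alone the list's median was 0.22. The median gene of the list differed by 0.58 on the log2 scale between the 2 knockout arrays and by 0.38 between the 2 heterozygous arrays, but by 0.19 between the group means. For all genes these medians were 0.53, 0.50 and 0.25. In 7 of the 32 genes both knockout arrays lay above both heterozygous arrays, beside 9.7% of all genes, and in 1 of the 32 both lay below, beside 12.9% of all genes. In tissue RNA such as this, fewer cells of a type and less RNA per cell cannot be told apart.

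**Figure D1:**
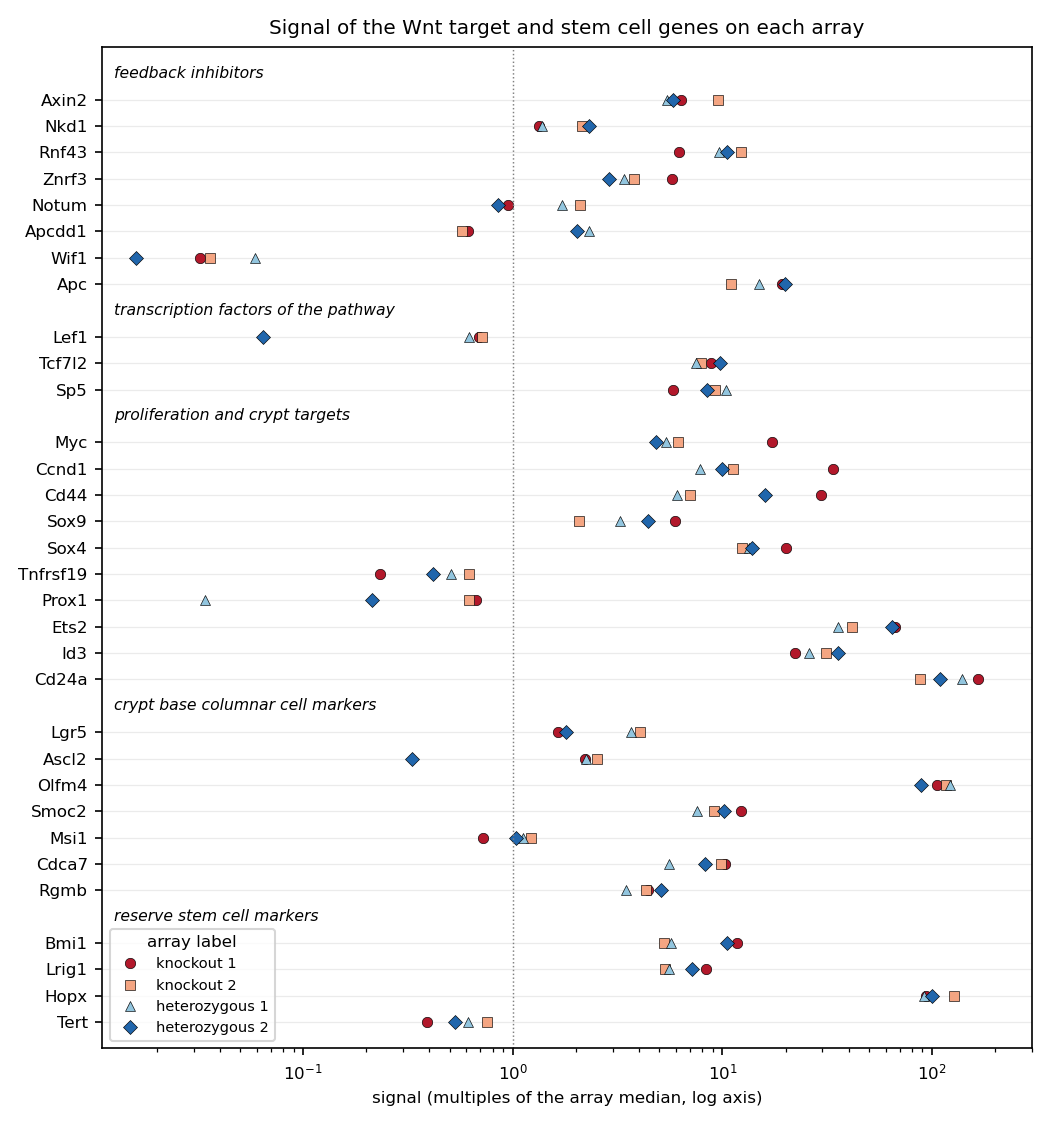
Signal of the 32 genes on each array, in multiples of the array median on a logarithmic axis, grouped by role. Each symbol is 1 array and the dotted line marks the array median. Myc, Ccnd1 and Cd44 lie far to the right on knockout 1, Apcdd1 is the 1 gene with both knockout arrays below both heterozygous arrays, and Ascl2 and Lef1 are set apart by heterozygous 2.

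The inhibitors of the pathway dampen it, and most of them are themselves switched on by Wnt signalling. Axin2, a scaffold of the complex that destroys beta-catenin and a common readout of the pathway, had a signal of 6.33 and 9.50 on the knockout arrays, against 5.44 and 5.84 on the heterozygous arrays. Knockout 2 was the highest of the 4 and the groups did not overlap, but the arrays labelled knockout differed by more than the groups did. The log2 difference was 0.44 (SE 0.49, limma adjusted p = 0.999907), and it was 0.16 without knockout 2, 0.72 without knockout 1 and 0.21 between knockout 1 and heterozygous 1. Its dimmer probe set had the same order of groups, at 0.753 and 1.015 on the knockout arrays and 0.533 and 0.638 on the heterozygous arrays. After quantile normalization, which gives all arrays 1 distribution, the groups of the brighter probe set overlapped. It then had 5.5 and 11.3 on the knockout arrays, against 6.6 and 5.1 on the heterozygous arrays.

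The promoter of Axin2 is shown with that of Sp5, a transcription factor gene directly switched on by beta-catenin, because both genes are used as readouts of the pathway. The windows run from 250 bases before to 50 bases after the gene start in RefSeq, assembly GRCm38.p6, and are printed on the strand of the gene. The Axin2 window is chr11:108920099-108920398 (plus strand) and the Sp5 window is chr2:70474673-70474972 (plus strand). Capitals mark CTTTGAT, the core of the sequence bound by Tcf and Lef factors, which was searched on both strands. The Sp5 window held it once, beginning 104 bases before the start, and the Axin2 window did not hold these letters. Of 34 windows of 23 genes of the list, 2 held the core, the other being a window of Tnfrsf19, and 3.73% of all 32851 windows did.
Axin2: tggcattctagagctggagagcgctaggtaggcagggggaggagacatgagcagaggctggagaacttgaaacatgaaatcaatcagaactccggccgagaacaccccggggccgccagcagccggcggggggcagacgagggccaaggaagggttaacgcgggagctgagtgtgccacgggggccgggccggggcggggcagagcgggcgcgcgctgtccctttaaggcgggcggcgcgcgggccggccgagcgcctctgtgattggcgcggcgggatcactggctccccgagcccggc
Sp5: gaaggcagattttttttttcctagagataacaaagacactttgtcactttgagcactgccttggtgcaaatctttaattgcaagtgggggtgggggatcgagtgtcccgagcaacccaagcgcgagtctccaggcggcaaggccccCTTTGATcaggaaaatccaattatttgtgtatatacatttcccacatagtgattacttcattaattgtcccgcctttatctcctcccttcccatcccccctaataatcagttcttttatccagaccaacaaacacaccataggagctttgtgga

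Rnf43 and Znrf3 encode related ubiquitin ligases that remove Frizzled receptors from the cell surface. Rnf43 had a signal of 6.24 and 12.3 on the knockout arrays, against 9.65 and 10.5 on the heterozygous arrays, so that the groups overlapped and the lowest and highest values were both on knockout arrays. Znrf3 had 5.77 and 3.78 on the knockout arrays, against 3.40 and 2.88 on the heterozygous arrays. These groups did not overlap and knockout 1 was highest. For Znrf3 the log2 difference was 0.54 (SE 0.45, limma adjusted p = 0.999907), 0.25 without knockout 1, 0.82 without knockout 2 and 0.71 between knockout 1 and heterozygous 1. The second probe set of Znrf3 was dim, at 0.173 and 0.211 on the knockout arrays, against 0.793 and 0.153 on the heterozygous arrays, with overlapping groups, and the mean over both probe sets gave a difference of 0.02. The related pair thus did not share an order of arrays, since knockout 1 was lowest for Rnf43 and highest for Znrf3.

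Apcdd1, a membrane protein that inhibits Wnt signalling at the cell surface, was the gene of the list with the lowest unadjusted p. It had a signal of 0.608 and 0.569 on the knockout arrays, against 2.31 and 2.03 on the heterozygous arrays. Both knockout arrays were below both heterozygous arrays, replicates of a label lay close together, and the 2 arrays whose Ap1m2 signal goes against their label lay with their label. The log2 difference was −1.45 (SE 0.44, unadjusted p = 0.00647, limma adjusted p = 0.999907), with a range of −1.54 to −1.37 when each array was left out in turn and −1.50 between knockout 1 and heterozygous 1. The signal was near the array median, and the other 5 probe sets of Apcdd1 were dimmer, at means of 0.086 to 0.561, with overlapping groups. The value therefore rests on 1 of 6 probe sets, and the mean over all 6 gave a log2 difference of −0.21.

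Notum, an enzyme that removes the lipid from Wnt proteins, had a signal of 0.946 and 2.10 on the knockout arrays, against 1.71 and 0.851 on the heterozygous arrays. Its 2 higher values were on knockout 2 and heterozygous 1, the arrays with the high Ap1m2 signal. Nkd1, which binds Dishevelled and blocks the signal, had 1.33 and 2.14 on the knockout arrays, against 1.38 and 2.31 on the heterozygous arrays, and was higher on replicate 2 of either label. Its other probe set above the brightness limit ran the opposite way, at 1.93 and 0.680 on the knockout arrays and 1.54 and 0.911 on the heterozygous arrays. Apc, the scaffold of the destruction complex that is lost in intestinal tumours, had 19.3 and 11.0 on the knockout arrays, against 15.0 and 19.8 on the heterozygous arrays, with overlapping groups. The secreted inhibitor Wif1 was far below the array median, at 0.032 and 0.036 on the knockout arrays, against 0.059 and 0.016 on the heterozygous arrays.

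Of the transcription factors of the pathway, Tcf7l2, the Tcf factor needed for crypt maintenance, had a signal of 8.85 and 7.89 on the knockout arrays, against 7.52 and 9.69 on the heterozygous arrays. The groups overlapped and the 4 values lay close together. Sp5 had 5.78 and 9.25 on the knockout arrays, against 10.4 and 8.47 on the heterozygous arrays, with knockout 1 the lowest. Lef1, a factor of the same family as Tcf7l2, was below the array median at 0.693 and 0.716 on the knockout arrays, against 0.616 and 0.064 on the heterozygous arrays. Its groups did not overlap and its log2 difference was 0.77, which was not tested because the gene was too dim. That difference was 0.13 without heterozygous 2, 1.42 without heterozygous 1 and 0.11 between knockout 1 and heterozygous 1. It was 0.38 with a pseudocount of 1 and 1.23 with one of 0.1.

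Of the 10 targets that drive proliferation or mark the crypt, 8 had their highest signal on knockout 1, beside 36.9% of all genes. The margin over the next array lay between 1.03 times for Ets2 and 2.99 times for Ccnd1. Myc, a transcription factor that drives growth and division, had a signal of 17.2 and 6.12 on the knockout arrays, against 5.41 and 4.82 on the heterozygous arrays. Knockout 1 was 2.81 times knockout 2, while the other 3 arrays lay close together. On the scale of log2(value + 0.32) that was used for all differences, the knockout arrays were 1.44 apart for Myc, and 8.75% of all genes were at least as far apart. The groups did not overlap. For Myc the log2 difference was 0.97 (SE 0.56, limma adjusted p = 0.999907). It was 0.25 without knockout 1, 1.69 without knockout 2 and 1.61 between knockout 1 and heterozygous 1.

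Ccnd1 encodes cyclin D1, which starts the cell cycle. It had a signal of 33.6 and 11.2 on the knockout arrays, against 7.82 and 9.95 on the heterozygous arrays. Again knockout 1 stood apart, at 2.99 times knockout 2, and the groups did not overlap. The log2 difference was 1.11 (SE 0.62, limma adjusted p = 0.999907), 0.34 without knockout 1, 1.89 without knockout 2 and 2.06 between knockout 1 and heterozygous 1. The other probe sets of Ccnd1 had 18.4 and 4.17 on the knockout arrays against 4.08 and 7.67 on the heterozygous arrays, and 20.3 and 8.73 against 6.27 and 10.6. Both were highest on knockout 1, but in both the groups overlapped.

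Cd44, an adhesion receptor for hyaluronan and a crypt marker, had 29.7 and 6.99 on the knockout arrays, against 6.07 and 15.9 on the heterozygous arrays. The 2 arrays with the low Ap1m2 signal, knockout 1 and heterozygous 2, were the highest. Knockout 1 was 4.25 times knockout 2, and heterozygous 2 was 2.62 times heterozygous 1. On the log2(value + 0.32) scale the knockout arrays were 2.04 apart, and 2.37% of all genes were at least as far apart. The heterozygous arrays were 1.34 apart, with 5.78% of all genes at least as far. The other probe sets of Cd44 above the brightness limit had the same order of arrays, at 18.8 and 5.64 on the knockout arrays against 5.11 and 12.0 on the heterozygous arrays, and at 7.65 and 1.10 against 1.01 and 3.26. Sox9, a transcription factor of crypt stem and Paneth cells, had a similar order, at 5.93 and 2.06 on the knockout arrays against 3.24 and 4.39 on the heterozygous arrays.

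Ets2, a transcription factor, had a signal of 66.7 and 41.6 on the knockout arrays, against 35.7 and 64.6 on the heterozygous arrays, and was likewise higher on knockout 1 and heterozygous 2. Sox4, a relative of Sox9, had 20.1 and 12.4 on the knockout arrays, against 13.5 and 13.9 on the heterozygous arrays. As deposited, knockout 1 thus lay apart from 3 similar values. After quantile normalization Sox4 had 17.1 and 15.0 on the knockout arrays, against 16.8 and 11.7 on the heterozygous arrays. Its 4 probe sets above the brightness limit did not share a highest array. Cd24a, a surface glycoprotein of crypt cells, had 165 and 87.5 on the knockout arrays, against 139 and 110 on the heterozygous arrays. The exceptions in this class were Id3 and Tnfrsf19. Id3, an inhibitor of basic helix-loop-helix factors, had 22.3 and 31.2 on the knockout arrays, against 25.9 and 35.8 on the heterozygous arrays. Tnfrsf19, a receptor known as Troy that marks crypt base cells, was dim at 0.233 and 0.620 on the knockout arrays, against 0.509 and 0.418 on the heterozygous arrays. Both were lowest on knockout 1. The homeobox gene Prox1 was also dim, at 0.669 and 0.621 on the knockout arrays, against 0.034 and 0.213 on the heterozygous arrays. Its groups did not overlap, and its log2 difference of 1.15 was not tested. That difference was 1.48 between knockout 1 and heterozygous 1, 0.56 with a pseudocount of 1, 1.86 with one of 0.1 and 0.45 as the mean over its 3 probe sets.

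**Figure D2:**
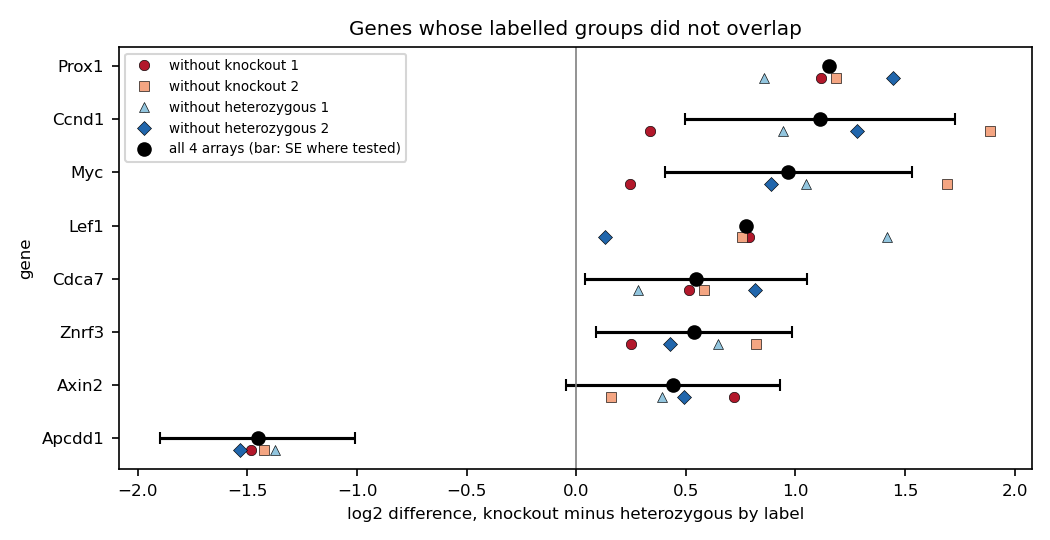
Log2 difference, knockout minus heterozygous by label, for the 8 genes whose labelled groups did not overlap. Black points use all 4 arrays, with the standard error from limma as a bar where the gene was tested, and coloured symbols leave out 1 array each. The differences of Myc and Ccnd1 come to 0.25 and 0.34 without knockout 1, whereas that of Apcdd1 stays between −1.54 and −1.37.

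Markers of dividing cells ran beside this class. Of 13 measured proliferation genes all 13 had their highest signal on knockout 1, and they summed to 542 and 182 on the knockout arrays, against 174 and 277 on the heterozygous arrays. Pcna, the clamp of the replication machinery, had 197 and 70.4 on the knockout arrays, against 74.0 and 121 on the heterozygous arrays. Of the 13 absorptive enterocyte markers, 7 were lowest on knockout 1 and 6 on knockout 2, and after quantile normalization 12 were lowest on knockout 1 and 1 on knockout 2. The part of cell makeup in the signal of the crypt targets was not tested.

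Of the 7 measured markers of crypt base columnar cells, 2 were highest on knockout 1 and 3 on knockout 2, against 1 on heterozygous 1 and 1 on heterozygous 2. Lgr5, the R-spondin receptor that defines these stem cells, had a signal of 1.64 and 4.05 on the knockout arrays, against 3.65 and 1.78 on the heterozygous arrays. It was higher on knockout 2 and heterozygous 1, and the groups overlapped. Its other probe set was dim and had the opposite order, at 0.791 and 0.119 on the knockout arrays, against 0.053 and 0.602 on the heterozygous arrays. Ascl2, a basic helix-loop-helix factor that controls the identity of these cells, had 2.20 and 2.53 on the knockout arrays, against 2.23 and 0.330 on the heterozygous arrays. Heterozygous 2 alone was low, and heterozygous 1 was 6.74 times as high. On the log2(value + 0.32) scale the heterozygous arrays were 1.97 apart, and 1.11% of all genes were at least as far apart. A second probe set of Ascl2 had 0.894 and 1.39 on the knockout arrays, against 1.06 and 0.651 on the heterozygous arrays, again lowest on heterozygous 2. Olfm4, a secreted glycoprotein abundant in these cells, had 106 and 117 on the knockout arrays, against 122 and 88.6 on the heterozygous arrays. Its values were close together and also lowest on heterozygous 2.

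Smoc2, a secreted matrix protein of the stem cell signature, had 12.2 and 9.16 on the knockout arrays, against 7.54 and 10.2 on the heterozygous arrays, with overlapping groups. Cdca7, a gene of dividing cells and a target of Myc, had 10.3 and 9.83 on the knockout arrays, against 5.59 and 8.23 on the heterozygous arrays. Its groups did not overlap, with a log2 difference of 0.55 (SE 0.51, limma adjusted p = 0.999907), 0.28 without heterozygous 1 and 0.85 between knockout 1 and heterozygous 1. A second probe set of Cdca7 had 1.18 and 1.41 on the knockout arrays, against 1.57 and 0.944 on the heterozygous arrays, with overlapping groups, and the mean over both gave a log2 difference of 0.30. Rgmb, a co-receptor for bone morphogenetic proteins, had 4.42 and 4.34 on the knockout arrays, against 3.47 and 5.12 on the heterozygous arrays. Msi1, an RNA-binding protein used as a stem cell marker, had 0.722 and 1.23 on the knockout arrays, against 1.11 and 1.04 on the heterozygous arrays. In both the groups overlapped. Msi1, at a mean of 1.02, lay just inside the brightness limit of 0.983, and Tert, at 0.569, was the nearest gene of the list outside it.

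**Figure D3:**
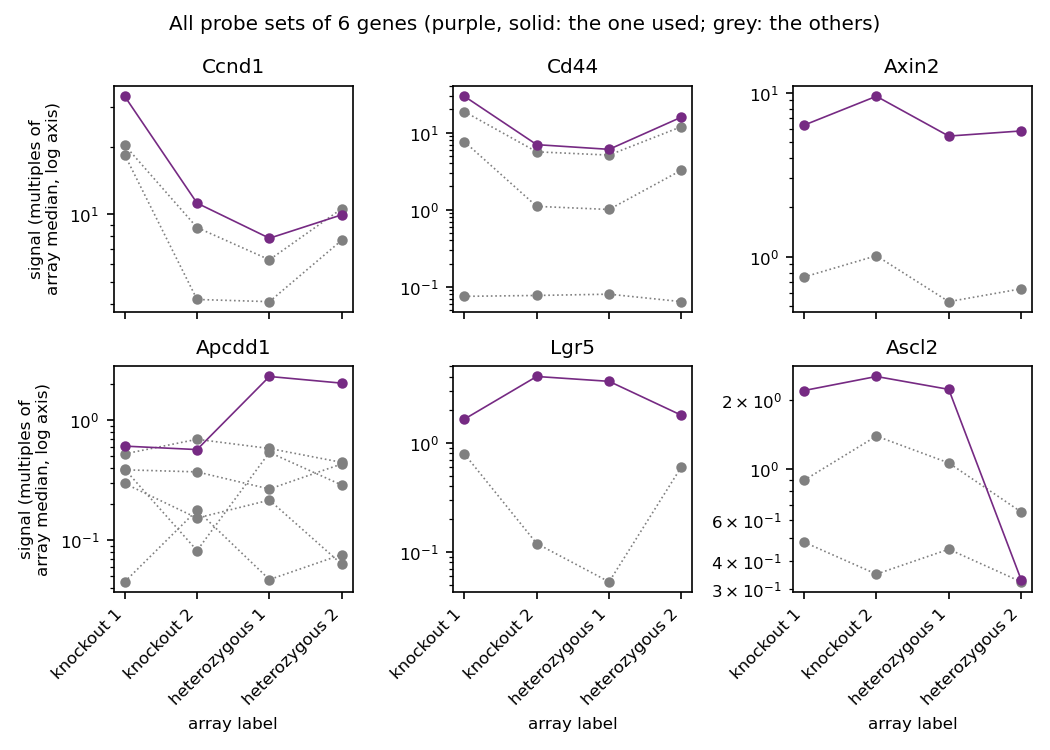
Signal of every probe set of 6 genes on each array, in multiples of the array median on logarithmic axes, with the probe set used as a solid purple line and the others as dotted grey lines. All probe sets of Ccnd1 are highest on knockout 1, whereas those of Apcdd1 and Lgr5 run in different orders.

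Of the reserve stem cell markers, Bmi1, a Polycomb protein, had a signal of 11.8 and 5.26 on the knockout arrays, against 5.71 and 10.5 on the heterozygous arrays. Lrig1, an inhibitor of ErbB receptors, had 8.38 and 5.30 on the knockout arrays, against 5.56 and 7.14 on the heterozygous arrays. Both were higher on knockout 1 and heterozygous 2. Hopx, an atypical homeodomain protein, had 94.0 and 127 on the knockout arrays, against 91.9 and 100.3 on the heterozygous arrays. Tert, the catalytic subunit of telomerase, was dim at 0.388 and 0.749 on the knockout arrays, against 0.609 and 0.531 on the heterozygous arrays. Both were highest on knockout 2, and no marker of this class had groups that did not overlap.

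The classes were also described array by array, with no test between classes. Each gene was set against its own mean over the 4 arrays on the log2 scale, and the median deviation was taken over the class. For the 10 proliferation and crypt targets it was 0.53 on knockout 1 and −0.24 on knockout 2, against −0.28 on heterozygous 1 and −0.05 on heterozygous 2. For the 7 crypt base columnar markers it was 0.04 and 0.22 on the knockout arrays, against 0.11 and −0.01 on the heterozygous arrays. For the 8 feedback inhibitors it was −0.19 and 0.13 on the knockout arrays, against −0.02 and 0.04 on the heterozygous arrays. All 18193 genes themselves deviated by 0.12 and −0.12 on the knockout arrays, against −0.15 and 0.16 on the heterozygous arrays, a shift between arrays that quantile normalization, which gives all arrays 1 distribution, brought to between −0.01 and 0.01. After it the proliferation and crypt targets stood at 0.38 and −0.002 on the knockout arrays, against −0.06 and −0.14 on the heterozygous arrays. The crypt base columnar markers then stood at −0.13 and 0.37 on the knockout arrays, against 0.11 and −0.24 on the heterozygous arrays.

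**Figure D4:**
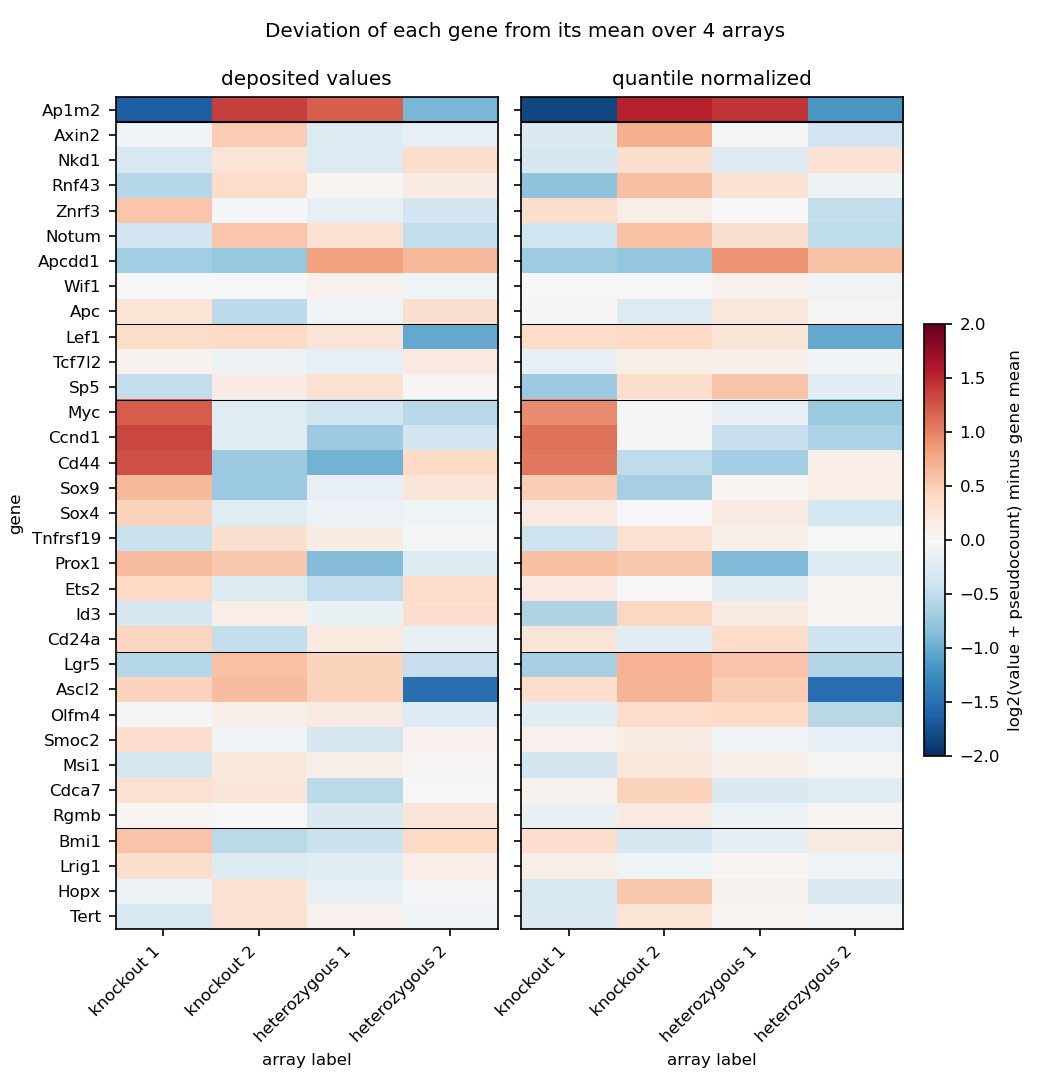
Deviation of each of the 32 genes, and of Ap1m2, from its mean over the 4 arrays on the log2 scale, as deposited and after quantile normalization. Rows are grouped by role and columns are array labels, and the colour scale stops at its printed ends. The block of proliferation and crypt targets is highest on knockout 1 for 8 of 10 genes as deposited and 7 of 10 after normalization.

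The scaling also decided which array held the most maxima. As deposited, 13 of the 32 genes were highest on knockout 1 and 10 on knockout 2, against 4 on heterozygous 1 and 5 on heterozygous 2. Among all genes the shares were 36.9% and 14.2% on the knockout arrays, against 16.9% and 32.1% on the heterozygous arrays. Once the arrays were quantile normalized, 10 genes of the list peaked on knockout 1 and 16 on knockout 2, against 6 on heterozygous 1 and 0 on heterozygous 2, beside 32.8% and 22.1% of all genes on the knockout arrays, and 24.3% and 20.8% on the heterozygous arrays. Knockout 2 thus held a larger share of the list's maxima than of all genes' maxima on both scales, and no test was made of this.

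**Figure D5:**
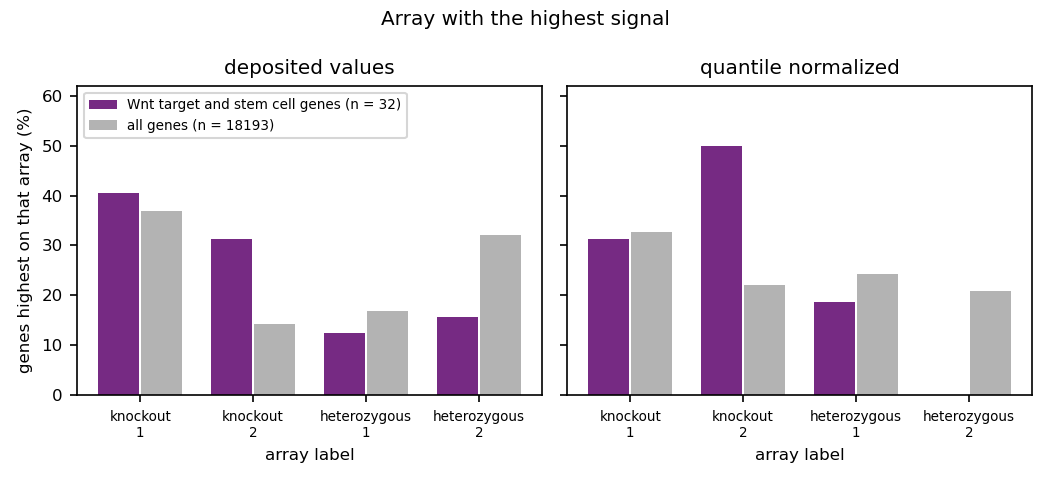
Share of genes, in percent, whose highest signal fell on each array, for the 32 genes of the list and for all 18193 genes, as deposited (left) and after quantile normalization (right). Bars for knockout 2 are higher for the list than for all genes in both panels, at 31.2% against 14.2% and at 50% against 22.1%.

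By Ap1m2 signal, the arrays form a low pair, knockout 1 and heterozygous 2, and a high pair, knockout 2 and heterozygous 1. For 10 of the 32 genes the 2 highest arrays were the low pair, beside 41.5% of all genes. These were Apc, Tcf7l2, Cd44, Sox9, Sox4, Ets2, Smoc2, Rgmb, Bmi1 and Lrig1. For 9 of the 32 they were the high pair, beside 12.5% of all genes, and these were Notum, Wif1, Sp5, Tnfrsf19, Lgr5, Ascl2, Olfm4, Msi1 and Tert. After quantile normalization the low pair was highest for 4 genes, Cd44, Sox9, Ets2 and Bmi1, beside 24.0% of all genes, and the high pair for 14, beside 21.7%. T cell markers had the order of the high pair too, since 10 measured genes summed to 13.8 and 291 on the knockout arrays, against 477 and 95.3 on the heterozygous arrays. Their part in the signal of Lgr5 and the other genes of that order was not tested.

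The upstream pathway was read from 80 further genes, of which 44 were bright enough to be tested and 0 had a limma adjusted p under 0.05. Their median log2 difference was 0.07, with 47 genes above 0 and 33 below, and in 11 genes (13.8%) both knockout arrays lay above both heterozygous arrays, beside 9.7% of all genes, and in 9 (11.2%) both lay below, beside 12.9%. Among 25 ligands and their helpers, Wls, the carrier that brings Wnt proteins to the cell surface, had 4.58 and 2.62 on the knockout arrays, against 3.23 and 3.32 on the heterozygous arrays. Wnt4 had 0.209 and 4.43 on the knockout arrays, against 5.21 and 2.79 on the heterozygous arrays, and was below the array median on knockout 1 alone. Porcn, the enzyme that adds the lipid to Wnt proteins, had 2.91 and 2.65 on the knockout arrays, against 2.50 and 4.16 on the heterozygous arrays. Wnt6 had 2.81 and 2.22 on the knockout arrays, against 2.12 and 1.99 on the heterozygous arrays, in groups that did not overlap.

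Of 17 receptors, Fzd5, the main Frizzled of the intestinal epithelium, had 50.3 and 29.1 on the knockout arrays, against 28.4 and 51.3 on the heterozygous arrays. Lgr4, a relative of Lgr5, had 52.6 and 26.5 on the knockout arrays, against 29.7 and 37.7 on the heterozygous arrays. Lrp6, the Wnt co-receptor, had 9.78 and 9.60 on the knockout arrays, against 7.29 and 14.0 on the heterozygous arrays. Ryk had 13.5 and 9.67 on the knockout arrays, against 6.27 and 14.7 on the heterozygous arrays. These 4 receptors were highest on knockout 1 or heterozygous 2. Of all genes above the brightness limit, 42.6% were highest on knockout 1 and 37.8% on heterozygous 2. Of 16 genes of signal transduction, Ctnnb1, which encodes beta-catenin, had 411 and 227 on the knockout arrays, against 264 and 350 on the heterozygous arrays. Csnk1a1, the kinase that primes beta-catenin for destruction, had 128 and 70.3 on the knockout arrays, against 82.1 and 117 on the heterozygous arrays. Tnks2, a tankyrase that marks Axin for destruction, had 62.8 and 35.6 on the knockout arrays, against 29.9 and 50.3 on the heterozygous arrays, and the kinase Csnk1d had 56.4 and 33.5 on the knockout arrays, against 37.1 and 46.2 on the heterozygous arrays. These 4 were higher on the low Ap1m2 pair, as were 41.5% of all genes and 56.7% of those above the brightness limit. After quantile normalization only Ctnnb1 and Csnk1a1 kept this pair as their highest.

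Of 11 nuclear cofactors, the corepressor Tle1 had 23.2 and 9.81 on the knockout arrays, against 5.69 and 14.5 on the heterozygous arrays, and its relative Tle4 had 24.0 and 21.2 on the knockout arrays, against 18.2 and 33.5 on the heterozygous arrays. The coactivator Crebbp had 18.8 and 11.5 on the knockout arrays, against 14.2 and 21.1 on the heterozygous arrays, and Pygo2, a partner of beta-catenin, had 9.14 and 7.93 against 5.93 and 11.1. All 4 were higher on the low Ap1m2 pair, as were 56.7% of all genes above the brightness limit. After quantile normalization only Tle1 kept this pair as its highest. Of 11 secreted inhibitors and their receptors, Sfrp4 had 2.76 and 3.75 on the knockout arrays, against 2.97 and 4.87 on the heterozygous arrays. Kremen1, a receptor for Dickkopf inhibitors, had 3.42 and 3.11 on the knockout arrays, against 3.03 and 4.58 on the heterozygous arrays. Both were highest on heterozygous 2. Sfrp1, which binds Wnt proteins outside the cell, had 1.05 and 2.34 on the knockout arrays, against 1.13 and 0.728 on the heterozygous arrays. Sfrp5, of the same family, had 1.39 and 2.59 on the knockout arrays, against 2.12 and 1.92 on the heterozygous arrays, and like Sfrp1 was highest on knockout 2. In these 4 the groups overlapped.

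Among 16 other genes of the Lgr5 cell signature, 12 were bright enough to be tested and 0 had a limma adjusted p under 0.05. Of the 16, 11 were highest on knockout 1, beside 36.9% of all genes. In 3 both knockout arrays lay above both heterozygous arrays and in 1 both lay below, beside 9.7% and 12.9% of all genes. After quantile normalization Gkn3, Cdk6 and Kcnq1 were no longer highest on knockout 1. The median deviation of the 16 genes on knockout 1 was 0.33 as deposited and 0.08 after quantile normalization. Slc12a2, an ion cotransporter of crypt cells, had 54.7 and 28.6 on the knockout arrays, against 28.4 and 37.6 on the heterozygous arrays. Phgdh, the enzyme that starts serine synthesis, had 35.4 and 3.92 on the knockout arrays, against 4.31 and 10.8 on the heterozygous arrays. Clca3b had 22.6 and 13.6 on the knockout arrays, against 14.9 and 21.7 on the heterozygous arrays. These 3 were highest on knockout 1. Arhgef26 had 12.9 and 12.4 on the knockout arrays, against 11.8 and 14.9 on the heterozygous arrays, and was highest on heterozygous 2.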

How the data were processed

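The deposited table held 1 linear intensity per probe set and array, made with MAS5 per the submitters' processing notes (version not given in the sources used here). Its 45037 probe sets carried no depth or detection calls, and array medians of 0.996 to 0.998 show a rescaling that the labels do not state. Gene names came from the platform annotation, with 1 gene for 34945, several for 932 and none for 9160, and 34741 of the 1-gene probe sets were found by Entrez identifier in a RefSeq gene table. Groups followed the genotype labels. Values were transformed as log2(intensity + 0.32), where 0.32 is the 25th percentile of all values, so that fold differences of dim genes are understated. Probe sets whose mean reached the median of such means (0.983) were kept, 22519 in all. The comparison of knockout with heterozygous arrays was fitted in R 4.3.3 by limma 3.58.1 (lmFit, eBayes with an intensity trend, Benjamini-Hochberg adjustment, threshold 0.05). Exact permutation was not used, since with 2 arrays a group its smallest two-sided p is 0.333. Other steps used Python 3.11.15, numpy 2.4.6 and pandas 2.3.3. The fit was tested on simulated data.

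Every gene of the list is given on each array, a log2 difference only where the labelled groups did not overlap, and of other lists the counts with up to 4 of the brightest genes per class. The genes, the lists and the tests were chosen with earlier results of these data known. Alternatives were other pseudocounts, filters, scalings, probe set choices and fits, replicate terms, and each array left out. Arrays were never averaged by Ap1m2 signal. Same-numbered arrays did not deviate together from their group means (correlation −0.511 over 22519 probe sets), so the numbers were not taken to pair the samples.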

Additional observations from a re-analysis of the deposited data

How the results depend on the processing

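No gene of the list passed the adjusted threshold of limma under any setting run. Over all probe sets the count of 0 became 1 where only probe sets with a mean of at least 5.02 were tested, and with 1 array left out it ran between 0 and 240, at 24 without knockout 1 and 240 without knockout 2. The count stayed at 0 with either other pseudocount, no filter, quantile or 75th percentile scaling, and a robust or trend-free fit. The median log2 difference of the list, 0.065, was 0.22 between heterozygous 1 and knockout 1 alone and 0.041 to 0.161 with 1 array left out. The cause of these shifts was not tested. With a replicate block the count was 0 and the median 0.065. With the pairing crossed, an alternative chosen after seeing the data, 0 probe sets passed the adjusted threshold and 1246 an unadjusted p under 0.05. The differences of the 8 genes with groups that did not overlap kept their sign in all 106 recomputations. Groups that do not overlap fix the sign when an array is left out or the pseudocount changes, and some other fits leave the difference unchanged. Only quantile or 75th percentile scaling and the mean over probe sets could have reversed a sign. The count is therefore no evidence for the differences. After quantile normalization the groups of Axin2 overlapped and those of Smoc2 no longer did. The sizes of the 8 differences moved: as the mean over a gene's probe sets Znrf3 came to 0.02, Apcdd1 to −0.21, Prox1 to 0.45 and Cdca7 to 0.30. The pseudocount moved the dim genes Lef1 (0.38 to 1.23) and Prox1 (0.56 to 1.86). With 2 arrays a group, and Ap1m2 against the label on 1 array of each, small differences by label were not detectable. The tested genes' median standard error was 0.51. Differences well above it also failed the adjusted threshold, as that of Apcdd1 did at −1.45, so the lack of calls does not exclude changes of that size.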

Other observations

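Of the 32 genes, 16 had more than 1 probe set above the brightness limit. As deposited, these probe sets had the same highest array in 9 of the 16. In 7 of the 9 it was knockout 1, for Bmi1, Ccnd1, Cd24a, Cd44, Ets2, Smoc2 and Sox9. Of all genes above the brightness limit, 42.6% were highest on knockout 1 as deposited. After quantile normalization the probe set used was highest on heterozygous 1 for Cd24a and on knockout 2 for Smoc2. For the other genes of the 7 it stayed highest on knockout 1. Tcf7l2 was among the genes whose probe sets did not share a highest array. A second Tcf7l2 probe set had 2.97 and 4.46 on the knockout arrays, against 3.28 and 3.52 on the heterozygous arrays.

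Pancreatic acinar genes summed over 7 measured genes to 3.46 and 89.8 on the knockout arrays, against 2.63 and 19.1 on the heterozygous arrays. Paneth cell genes, the neighbours of the crypt base columnar cells, summed over 5 measured genes to 488 and 205 on the knockout arrays, against 674 and 319 on the heterozygous arrays.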
